A study of Mus musculus with 14 samples.

Results

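The genes described here are 44 mouse genes of the interferon response and of antigen presentation, chosen by name. Of these, 42 were matched by symbol among the 36536 Ensembl genes of the count tables, and Gbp6 and Psmb9 are not analysed here. They fall into 5 classes: 5 transcriptional regulators (Stat2, Irf1, Irf7, Irf8 and Irf9), 21 antiviral genes, 6 interferon-induced GTPases, 5 genes of MHC class I processing and 5 genes of MHC class II. All 42 passed the filter on low counts in both fits. The genes were chosen with earlier results of these data known. Setting their counts beside the shares of all genes is therefore a description and not a test of the list.

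RNA was sequenced from colon and ileum of mice to find the genes that depend on ATOH1, the transcription factor that directs intestinal progenitors to the secretory lineage. Crypts called KO came from mice of 6 to 8 weeks with both Atoh1 alleles floxed (Atoh1 f/f) and Villin-CreERT2, an inducible recombinase driven by the Villin promoter in the epithelium, with 2 libraries per tissue. Cells called GFP, with 3 libraries per tissue, were sorted by flow cytometry as live (7AAD-negative) and fluorescent, and their donors were Atoh1 GFP/GFP mice, in which a working ATOH1-GFP fusion replaces ATOH1 and whose age the labels do not give. Crypts called WT came from littermates of the KO mice with the same recombinase and 1 floxed allele (Atoh1 f/+), again with 2 libraries per tissue, so they are not free of Cre and may have lost 1 copy of Atoh1. When the recombinase was induced is not given in the sources used here, and the labels do not say that libraries came from separate animals, so p-values measure the spread between these libraries.

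Interferons are secreted signals of infection that act through cell surface receptors and STAT and IRF transcription factors to switch on a large set of genes. Type I and type III interferons act mainly through a complex that holds STAT2 and IRF9 on the interferon-stimulated response element, whereas interferon gamma acts mainly through gamma-activated sites and through IRF1. The products include sensors and inhibitors of viral RNA, GTPases that attack the vacuoles of intracellular microbes, the immunoproteasome and peptide transporter that load MHC class I, and CIITA, the coactivator without which MHC class II genes are hardly transcribed. Intestinal epithelial cells respond to interferons and can carry MHC class II, as professional antigen-presenting cells do.

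Promoters of 5 of the genes are shown with the cores of the interferon-stimulated response element or the Y boxes found in them. RefSeq promoters of GRCm38.p6, which run from 250 bases before to 50 bases after a start of transcription, were found for 30 of the 42 genes (35 promoters of 300 bases). The core of the interferon-stimulated response element, searched on both strands as GAAANNGAAA, was present in 15 of the 35 promoters (42.9%), against 3.44% of all 32851 promoters in the table. By class it was present in 6 of 7 promoters of the GTPases, 8 of 14 of the antiviral genes, 1 of 8 of the regulators, 0 of 4 of class I processing and 0 of 2 of class II. The gamma-activated site, searched as TTCNNNGAA, was present in 8 of the 35 (22.9%), against 8.3% of all promoters, and the Y box CCAAT of class II promoters in 14 of the 35 (40%), against 37.4% of all promoters. A match describes the sequence and shows no binding, and an absent match says nothing of the factor. Capitals mark the element core in the first 4 promoters below and the Y box letters in that of H2-Eb1. The promoters of Bst2 and Igtp also held 1 gamma-activated site each, which is not marked. Isg15, Bst2 and Gbp3, which were higher in colon than in ileum crypts, held 3, 2 and 2 matches of the core. Ifit2, Ifi44, Oasl2 and Xaf1, also called higher in colon in both crypt comparisons, held no match in the promoters found. A further promoter of Gbp3 held none either. Igtp and H2-Eb1, which were lower in sorted cells than in crypts, held 1 match of the core and 2 of the Y box. The match farthest upstream began 78 bases before the start of transcription in Isg15, 130 in Bst2, 45 in Gbp3, 34 in Igtp and 59 in H2-Eb1. The promoters lie at chr4:156200769-156201068 (- strand, Isg15), chr8:71537423-71537722 (- strand, Bst2), chr3:142559794-142560093 (+ strand, Gbp3), chr11:58199306-58199605 (+ strand, Igtp) and chr17:34305617-34305916 (+ strand, H2-Eb1) of GRCm38.p6.
Isg15: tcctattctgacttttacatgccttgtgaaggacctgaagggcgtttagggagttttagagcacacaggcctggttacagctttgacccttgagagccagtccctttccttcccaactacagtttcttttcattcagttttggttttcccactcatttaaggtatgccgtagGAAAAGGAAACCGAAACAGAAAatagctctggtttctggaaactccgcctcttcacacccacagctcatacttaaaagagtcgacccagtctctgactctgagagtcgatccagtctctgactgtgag
Bst2: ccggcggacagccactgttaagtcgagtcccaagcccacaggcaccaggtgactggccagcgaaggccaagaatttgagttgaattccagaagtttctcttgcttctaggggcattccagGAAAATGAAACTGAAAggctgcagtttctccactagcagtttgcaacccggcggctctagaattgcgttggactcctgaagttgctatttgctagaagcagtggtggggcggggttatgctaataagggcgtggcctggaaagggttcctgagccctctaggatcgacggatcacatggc
Gbp3: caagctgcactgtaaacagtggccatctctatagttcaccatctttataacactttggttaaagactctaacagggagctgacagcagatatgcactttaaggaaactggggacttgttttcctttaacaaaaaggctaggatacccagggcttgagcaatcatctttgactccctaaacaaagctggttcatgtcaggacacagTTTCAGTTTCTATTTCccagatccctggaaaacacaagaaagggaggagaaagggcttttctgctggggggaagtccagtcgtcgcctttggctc
Igtp: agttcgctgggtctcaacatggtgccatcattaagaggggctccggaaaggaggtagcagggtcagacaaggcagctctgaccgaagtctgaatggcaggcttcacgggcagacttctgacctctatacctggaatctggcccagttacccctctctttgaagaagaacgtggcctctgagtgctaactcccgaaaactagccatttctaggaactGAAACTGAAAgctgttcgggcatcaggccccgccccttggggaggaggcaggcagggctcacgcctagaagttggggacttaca
H2-Eb1: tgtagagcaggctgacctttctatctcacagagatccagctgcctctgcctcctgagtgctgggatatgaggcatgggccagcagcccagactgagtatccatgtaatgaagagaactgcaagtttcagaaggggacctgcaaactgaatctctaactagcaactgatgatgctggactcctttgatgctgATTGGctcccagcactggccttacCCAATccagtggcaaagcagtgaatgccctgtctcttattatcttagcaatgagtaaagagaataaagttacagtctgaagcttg

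In the whole series, gene counts per library ranged from 7478418 to 12991891, and mitochondrial ribosomal RNA took 30.02 to 44.88% of them in GFP libraries, against 0.14 to 0.22% in crypt libraries. Levels are given in CPM, the counts of a gene scaled to the TMM-adjusted total of its library, which sets the bulk of genes level between libraries. Atoh1 had 5.2 and 5.9 CPM in colon KO crypts, 295, 231 and 264 CPM in colon GFP cells, and 62.6 and 44.7 CPM in colon WT crypts. It had 1.02 and 0.526 CPM in ileum KO crypts, 195, 323 and 296 CPM in ileum GFP cells, and 41 and 39.6 CPM in ileum WT crypts. No library thus went against its label in this gene. The Paneth cell markers Lyz1, Mmp7, Defa24 and Ang4 summed to 1960 CPM in colon GFP 1. They summed to 173 and 141 CPM in colon GFP 2 and 3, and to 49400 to 69400 CPM in ileum GFP cells. The source of these transcripts in colon GFP 1 was not tested. Epcam, a marker of epithelium, had 855 to 1930 CPM in the 14 libraries. The 7 epithelial markers (Epcam, Cdh1, Krt8, Krt18, Krt20, Vil1 and Cldn7) summed to 3130 to 5780 CPM in GFP cells, against 6680 to 10400 CPM in crypts. Crypt preparations also held leukocyte RNA: 5 pan-leukocyte markers (Ptprc, Coro1a, Laptm5, Cd52 and Cd53) summed to 1.81 to 5.11 CPM in GFP cells, against 27.8 to 133 CPM in crypts. In bulk libraries such as these, fewer cells of a type and less RNA per cell cannot be told apart.

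A pair of libraries stood apart from the others of their groups across these genes, and ileum GFP 1 did so in class II genes. Ileum WT 2 was lower than ileum WT 1 in 36 of 42 genes, by over 2-fold in 19, whereas 6.79% of all expressed genes were lower by over 2-fold. The difference differed by class: 5 of 5 class II genes, 5 of 6 GTPases and 4 of 5 class I processing genes were over 2-fold lower, against 4 of 21 antiviral genes. In that library T and NK cell markers summed to 30.9 CPM, against 206 CPM in ileum WT 1, and leukocyte markers to 27.8 CPM, against 133 CPM; their part in the difference was not tested. Colon GFP 3 was higher than colon GFP 1 in 37 of the 38 genes at a mean of 1 CPM or more, by over 2-fold in 23, against 6.93% of all expressed genes. Its leukocyte markers summed to 3.29 CPM, against 1.81 and 4.23 CPM in colon GFP 1 and 2. Its T and NK cell markers summed to 10.2 CPM, against 2.13 and 5.35 CPM in these libraries. Markers of absorptive cells summed to 1080 CPM in colon GFP 3, against 688 and 674 CPM. The part of such cells in the difference was not tested. Counts of genes called are given with and without ileum WT 2 and colon GFP 3, and calls that ended without one of them are named beside the results. Against ileum GFP 1, 5 of 5 class II genes were over 2-fold lower in ileum GFP 3 (7.55% of all expressed genes). In ileum GFP 2 these were 3 of 5 (8.79%). In ileum GFP 1, 52.29% of unique reads lay in no gene, against 27.78 and 31.25% in ileum GFP 2 and 3. Its goblet cell markers summed to 30900 CPM, against 90000 and 79200 CPM. The source of these differences was not tested. The Gbp, Ifit, Oas, Irgm, Mx and H2 genes belong to families of similar sequence, and reads that align at several sites were not counted to a gene, so their levels are uncertain.

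**Figure D1:**
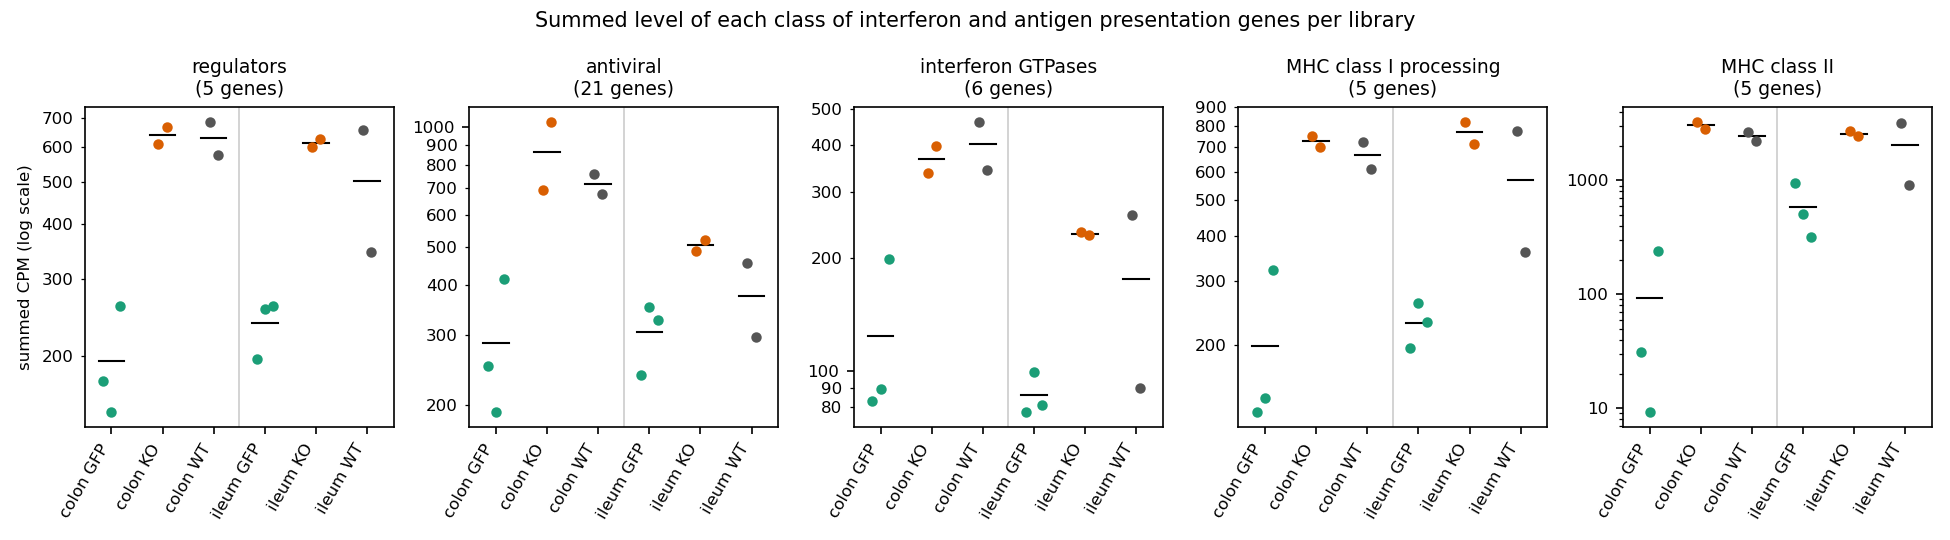
Summed CPM (log scale) of the genes in each of the 5 classes, with 1 point per library and a line at the group mean, for GFP, KO and WT of colon (left of the grey line) and ileum (right of it). The summed class II level is 9.21 to 239 CPM in colon GFP cells and 2220 to 3280 CPM in colon crypts, the antiviral sum is higher in colon than in ileum crypts, and 1 ileum WT library lies below the other in every class.

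Among crypt transcripts, antigen presentation genes were the most abundant of the 42. Per kilobase of exon, Cd74, the invariant chain that escorts class II molecules, averaged 986 CPM in colon KO and 818 CPM in colon WT crypts, and 802 CPM in ileum KO and 660 CPM in ileum WT crypts. H2-Ab1, H2-Eb1 and H2-Aa, which encode class II chains, and Psmb10, a catalytic subunit of the immunoproteasome, took the next ranks in all 4 crypt groups. Among antiviral genes, Isg15, a ubiquitin-like modifier, averaged 33.5 CPM per kilobase in colon KO and 27.8 in colon WT crypts, and 7.07 in ileum KO and 6.3 in ileum WT crypts. In colon GFP cells Psmb10 ranked first with 43.6 CPM per kilobase, and Ciita ranked last with 0.0562 CPM per kilobase.

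The genes that encode interferons were near or below detection. Ifnb1, Ifnl2 and Ifnl3 had no count in any of the 14 libraries, which allows up to 0.205 to 0.511 CPM per library at a floor of 3 counts. Ifng reached at most 0.381 CPM, in ileum WT 1. Of the receptors, Ifngr1 had 203 and 225 CPM in colon KO, 68.6, 57.6 and 65 CPM in colon GFP and 203 and 160 CPM in colon WT libraries. Ifnlr1, the epithelial receptor chain for type III interferons, had 8.83 to 23.7 CPM across all libraries.

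The first comparison asks whether loss of Atoh1 changed these genes in crypts. The edgeR test called no member in either tissue. In colon, 0 of 42 passed an edgeR adjusted p under 0.05 in KO against WT, where 0.153% of all tested genes were called. None had an unadjusted p under 0.05, and the DESeq2 Wald test called 0. In ileum, again 0 of 42 were called by edgeR, with 1.22% of all genes called, 2 had an unadjusted p under 0.05 and DESeq2 called 2. The median log2 fold change was 0.14 in colon and 0.31 in ileum, against 0.01 over all genes in each tissue. In colon 11 members had both KO libraries above both WT libraries and 2 had both below, as had 22.5% and 20.1% of all genes. In ileum these counts were 7 and 3, with 18.1% and 21.8% of all genes. The test of the difference between the tissues called 0 of 42, against 0.00694% of all genes, with 0 at an unadjusted p under 0.05 and 0 by DESeq2.

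The 2 genes that DESeq2 called in ileum were Rsad2, which encodes the antiviral enzyme viperin, and Oasl1, a 2'-5'-oligoadenylate synthetase-like protein. Rsad2 had 5.08 and 7.6 CPM in ileum KO crypts, against 3.05 and 1.41 CPM in ileum WT crypts. Its edgeR log2 fold change was 1.53 ± 0.40 (SE), with an adjusted p of 0.161. Oasl1 had 81 and 78.4 CPM in ileum KO crypts, against 43.3 and 25.3 CPM in ileum WT crypts, with a log2 fold change of 1.25 ± 0.46 (SE) and an edgeR adjusted p of 0.318. Both KO libraries were above both WT libraries for both genes. Without ileum WT 1, which leaves the low library ileum WT 2 as the only WT sample, edgeR called 19 of 42 members higher in KO, where 9.41% of all genes were called in either direction, and with ileum WT 2 left out instead it called 0, where 1.2% of all genes were. Without ileum WT 1 the test of the difference between the tissues called 13, each with a lower KO fold change in colon than in ileum, where 2.25% of all genes were called.

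For the 5 class II genes both colon KO libraries lay above both colon WT libraries, and none passed the test. Cd74 had 1780 and 1530 CPM in colon KO crypts, against 1500 and 1240 CPM in colon WT crypts. Ciita had 66.2 and 63.5 CPM in colon KO crypts, against 52.4 and 41.8 CPM in colon WT crypts. Their log2 fold changes ran from 0.26 to 0.45 and their edgeR adjusted p-values from 0.945 to 0.976. The 5 leukocyte markers lay the other way, with sums of 29.6 and 37.9 CPM in colon KO crypts, against 73 and 53.8 CPM in colon WT crypts, and none of the 5 was called. In ileum, Cd74 had 1450 and 1250 CPM in KO crypts, against 1710 and 505 CPM in WT crypts, so the WT libraries lay on both sides of the KO libraries.

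No gene of the other classes was called in KO crypts by edgeR either. Irf1, an activator of interferon gamma targets, had 261 and 257 CPM in colon KO, against 298 and 243 CPM in colon WT crypts. Its ileum levels were 276 and 268 CPM in KO, against 292 and 131 CPM in WT crypts. Parp14, an ADP-ribosyltransferase, had 138 and 185 CPM in colon KO, against 146 and 138 CPM in colon WT crypts. In colon the KO and WT libraries overlapped for Irf1 and Parp14. In ileum they overlapped for Irf1, whereas for Parp14 both KO libraries lay above both WT libraries. The ileum log2 fold change of Parp14 was 0.52, with an edgeR adjusted p of 0.475. Tapbp, the tapasin chaperone of peptide loading, had 255 and 255 CPM in colon KO, against 240 and 223 CPM in colon WT crypts, and Irgm1, a GTPase that controls other immunity-related GTPases, had 113 and 130 CPM, against 148 and 116 CPM. Of the other genes of the pathway, 0 of 12 tested interferon, receptor and signalling genes, 0 of 33 other interferon-induced genes, 0 of 10 nucleic acid sensing genes, 0 of 12 other class I genes and 0 of 10 other class II genes were called in either tissue.

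The second comparison sets sorted ATOH1-GFP cells against WT crypts. The GFP cells differ from WT crypts in cell type, donor genotype, sorting and share of mitochondrial ribosomal RNA, and the age of their donors is not given. These cannot be told apart in the differences below. The goblet cell mucin Muc2 had 8230 to 34400 CPM in GFP cells, against 283 to 1570 CPM in WT crypts. Of 6 goblet cell markers (Muc2, Tff3, Clca1, Agr2, Fcgbp and Spdef), 3 were called higher and 0 lower in colon GFP cells. For 1 of them, Fcgbp, every colon GFP library lay below every colon WT library. In ileum GFP cells 5 of the 6 were called higher and 0 lower. In colon, 32 of 42 members were lower in GFP cells and 0 were higher, where 23.6% of all genes were called lower and 22.3% higher. The median log2 fold change was -1.79, against 0.01 over all genes. By class, 5 of 5 class II genes, 5 of 5 class I processing genes, 5 of 5 regulators, 4 of 6 GTPases and 13 of 21 antiviral genes were lower. In ileum, 16 of 42 were lower and 0 were higher, where 28.2% of all genes were called lower and 24.6% higher. These were 2 of 5 class II genes, 4 of 5 class I processing genes, 3 of 5 regulators, 2 of 6 GTPases and 5 of 21 antiviral genes, with a median of -1.0 against -0.06 over all genes. All 16 were among the 32 of colon, 50% of the colon list and 100% of the ileum list. The overlap of the lists over all genes is not given. Every GFP library lay below every WT library for 36 members in colon (34.7% of all genes) and for 18 in ileum (34.0% of all genes), while Rtp4 was the 1 member with every GFP library above in ileum (30.9% of all genes).

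The counts depended on single libraries. In colon, the calls of Irf9, Ifit3, Dhx58, Rsad2, Igtp and Psmb10 ended without colon GFP 1 and also without colon GFP 2. The colon call of Nlrc5 ended without colon GFP 2. In ileum, the calls of Igtp, Psmb8 and Psmb10 ended when any ileum GFP library was left out. Without colon WT 1 the colon count was 17, where 25.4% of all genes were called in either direction. The calls that ended were those of Cd74, H2-Ab1, Nlrc5, Psmb10, Gbp2, Gbp3, Igtp, Irf9 and 7 antiviral genes (Dhx58, Ifih1, Ifit1, Ifit3, Oas3, Rsad2 and Zbp1). Without ileum WT 1 the ileum count was 5, of which Irf8, Ciita and Usp18 were lower and Zbp1 and Gbp7 higher, where 36.6% of all genes were called, so 13 of the 16 calls ended. With ileum WT 2 left out instead it was 19, without Psmb10 and Usp18. With both colon GFP 3 and ileum WT 2 left out, an alternative chosen after seeing the data, the counts were 39 in colon and 28 in ileum. Without colon GFP 3 alone the colon count was 37. With library sizes computed after removing genes above 1% of counts, which include the mitochondrial ribosomal RNA, the counts were 32 in colon and 16 in ileum. Where no share of all genes is given beside a count, the count does not show whether members moved more than other genes. Leukocyte markers were low after the sort: Ptprc, the common leukocyte antigen, had 0.532 to 1.37 CPM in colon GFP and 0.612 to 2.04 CPM in ileum GFP cells, against 21.1 to 31.9 CPM in colon WT and 20.7 to 51 CPM in ileum WT crypts. Jchain, of plasma cells, was at 0 in 4 of the 6 GFP libraries. The 9 macrophage and dendritic cell markers summed to 10.8 to 15.7 CPM in colon GFP and 55.1 to 66.4 CPM in ileum GFP cells, against 52 to 86.8 CPM in colon WT and 26.2 to 103 CPM in ileum WT crypts. Nearly all of the ileum GFP sum came from Itgam (212, 327 and 281 counts), Lyz2 (55, 187 and 84) and Cd68 (50, 23 and 44). In the same libraries Csf1r had 3, 3 and 0 counts and Adgre1 had 0 in each. The part of leukocyte RNA in the lower level of these genes in GFP cells was not tested.

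**Figure D2:**
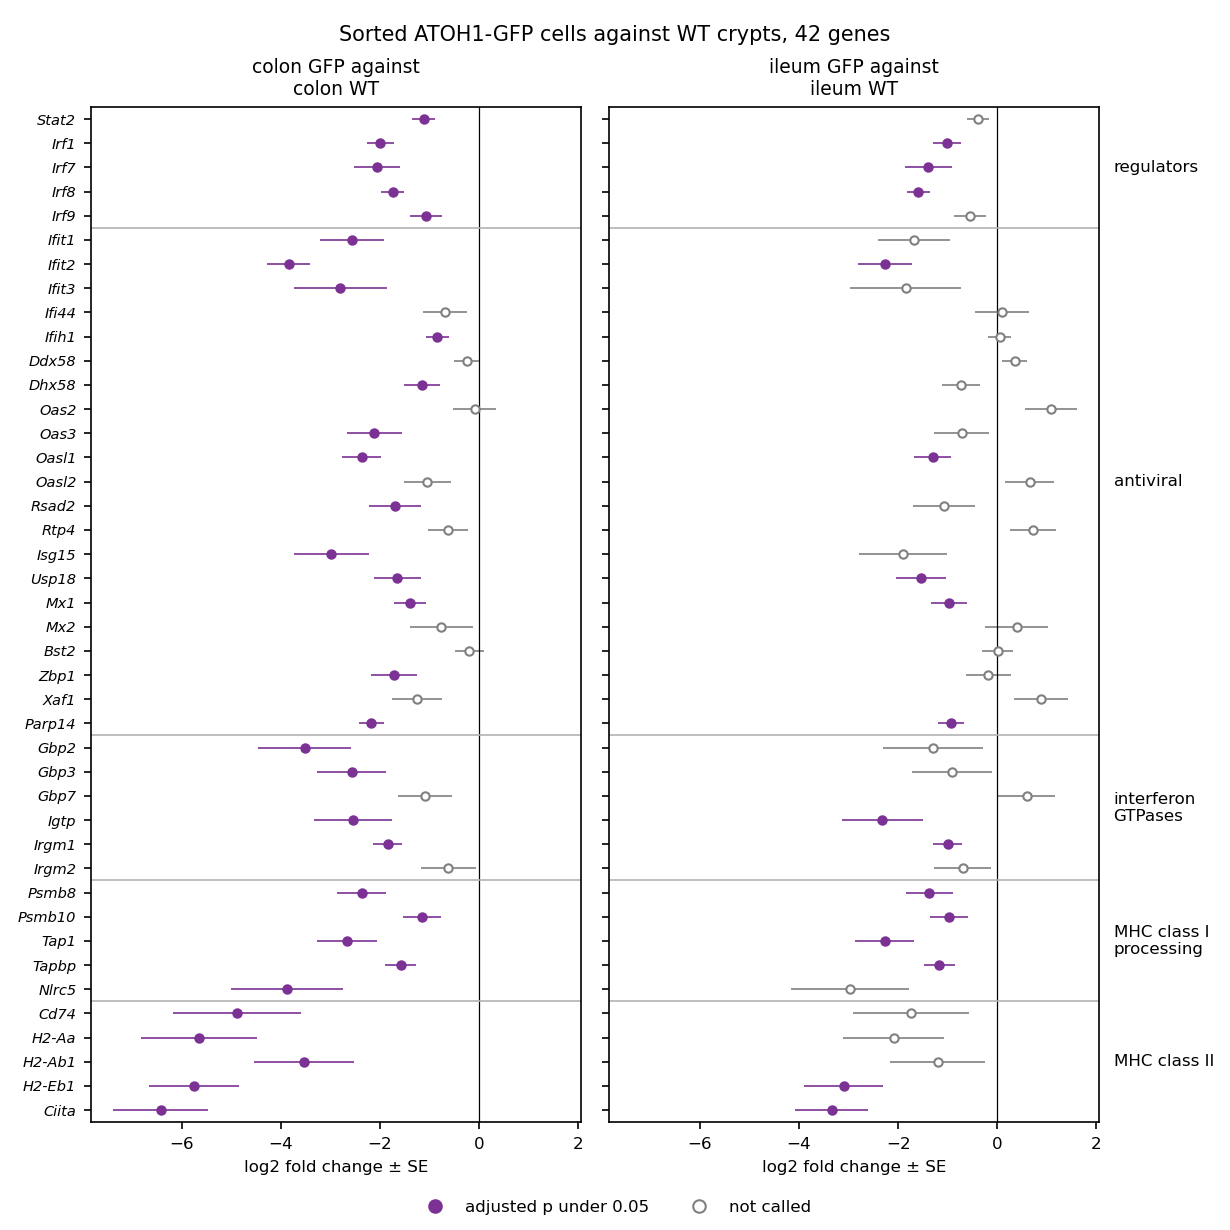
Log2 fold change (x axis, with its standard error as a bar) of each of the 42 genes, ordered down the page by class, in colon GFP against colon WT (left) and ileum GFP against ileum WT (right). Filled points have an edgeR adjusted p under 0.05. In colon all 42 points lie below 0, with class II genes at -3.53 to -6.42; in ileum 16 are called, all lower, and 10 lie above 0.

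In colon the class II genes had the lowest median log2 fold change of the 5 classes, at -5.64. Ciita had 0.638, 0.373 and 0.597 CPM in colon GFP cells, against 52.4 and 41.8 CPM in colon WT crypts, a log2 fold change of -6.42 ± 0.96 (SE) with an edgeR adjusted p of 0.000486. H2-Eb1, which encodes a class II beta chain, had 1.49, 1.24 and 11.6 CPM in colon GFP cells, against 269 and 219 CPM in colon WT crypts, 53.6-fold lower with an edgeR adjusted p of 0.000801. H2-Aa, an alpha chain, had 3.93, 1.24 and 20.5 CPM in colon GFP cells, against 459 and 369 CPM in colon WT crypts, 49.9-fold lower with an edgeR adjusted p of 0.0043. Every GFP library lay far below both WT libraries, and colon GFP 3 was the highest GFP library for H2-Eb1 and H2-Aa. Without it the log2 fold change was -7.46 for H2-Eb1 and -7.28 for H2-Aa, against -5.75 and -5.64 over all libraries. Cd74 had 11.4, 2.86 and 126 CPM in colon GFP cells, against 1500 and 1240 CPM in colon WT crypts.

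In ileum, where 2 of the 5 class II genes were called, their summed level was 946, 503 and 315 CPM in GFP cells, against 3170 and 911 CPM in ileum WT crypts. Ciita had 12.4, 2.08 and 1.43 CPM in ileum GFP cells, against 81 and 21.2 CPM in ileum WT crypts, a log2 fold change of -3.34 ± 0.73 (SE) with an edgeR adjusted p of 0.00373. H2-Eb1 had 43.6, 20.9 and 13.9 CPM in ileum GFP cells, against 342 and 102 CPM in ileum WT crypts, 8.56-fold lower with an edgeR adjusted p of 0.00875. The groups of ileum did not overlap for these 2 genes. Without ileum WT 1 the log2 fold change of H2-Eb1 was -2.00 and its edgeR adjusted p 0.0977, against -3.10 over all libraries, and that of Ciita was -2.09 with an adjusted p of 0.0464. Cd74 had 540, 274 and 184 CPM in ileum GFP cells, against 1710 and 505 CPM in ileum WT crypts, with overlapping groups and an edgeR adjusted p of 0.24. Within the ileum GFP group the order of libraries was the same for all 5 class II genes, highest in ileum GFP 1, whose leukocyte markers, at 5.11 CPM, were also the highest of the GFP libraries.

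**Figure D3:**
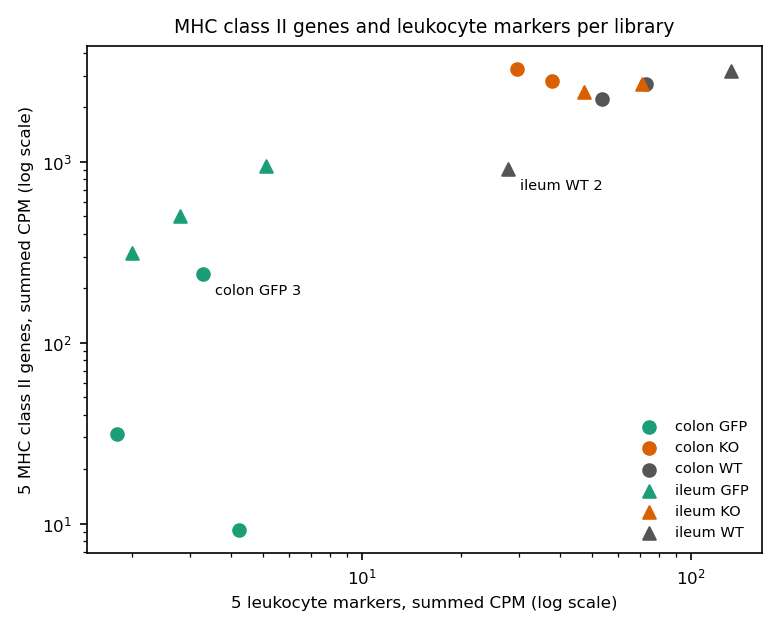
Summed CPM of the 5 class II genes (y axis, log scale) against summed CPM of the 5 leukocyte markers (x axis, log scale), with 1 symbol per library, circles for colon and triangles for ileum. The GFP libraries lie at 1.81 to 5.11 CPM of leukocyte markers, the colon KO libraries combine the highest colon class II sums (3280 and 2810 CPM) with 29.6 and 37.9 CPM of markers, and ileum WT 2 lies lowest in class II of the crypt libraries.

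Of 10 other genes of the class II pathway tested, 3 were lower and 1 was higher in colon GFP cells, where 23.6% of all genes were called lower and 22.3% higher. In ileum GFP cells 5 were lower and 0 were higher, where the shares of all genes were 28.2% and 24.6%. H2-DMa, part of the peptide editor of class II, had 2.13, 1.99 and 11.9 CPM in colon GFP cells, against 56.4 and 42.7 CPM in colon WT crypts, a log2 fold change of -3.27 ± 0.77 (SE) with an edgeR adjusted p of 0.00686. Ifi30, a lysosomal thiol reductase, was the gene that was higher in colon GFP cells, with a log2 fold change of 0.58 ± 0.20 (SE) and an edgeR adjusted p of 0.0297.

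Of the 5 genes of MHC class I processing, 5 were lower in colon GFP cells and 4 in ileum GFP cells, and none of the 4 ileum calls was left without ileum WT 1. Tap1, one chain of the peptide transporter, had 11.7, 11.3 and 38.2 CPM in colon GFP cells, against 145 and 111 CPM in colon WT crypts, 6.34-fold lower with an edgeR adjusted p of 0.00518. It had 16.5, 25.1 and 21.1 CPM in ileum GFP cells, against 163 and 39.6 CPM in ileum WT crypts, 4.84-fold lower with an edgeR adjusted p of 0.0095. Psmb8, a catalytic immunoproteasome subunit, had 16.4, 13.1 and 46.9 CPM in colon GFP cells, against 144 and 117 CPM in colon WT crypts, 5.17-fold lower with an edgeR adjusted p of 0.00251. The GFP and WT libraries did not overlap in any of these 3 comparisons. In ileum, Psmb8 had 47.8, 52.8 and 44.7 CPM in GFP cells, against 180 and 71.6 CPM in WT crypts, and was called at an edgeR adjusted p of 0.0309. This call ended when any ileum GFP library was left out. Tapbp had 51.4, 92.1 and 84.1 CPM in ileum GFP cells, against 235 and 108 CPM in ileum WT crypts, with an edgeR adjusted p of 0.00634. The ileum log2 fold changes of Tap1, Psmb8 and Tapbp without ileum WT 1 were -0.93, -0.58 and -0.52, with edgeR adjusted p-values of 0.194, 0.397 and 0.19.

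Nlrc5, the coactivator of class I genes and a relative of CIITA, had 0, 0.124 and 2.54 CPM in colon GFP cells, against 11.9 and 11.6 CPM in colon WT crypts, with an edgeR adjusted p of 0.0172. In ileum it had 0.681, 1.1 and 0.286 CPM in GFP cells, against 10.6 and 0.665 CPM in WT crypts, and was not called (edgeR adjusted p of 0.0566). The low ileum WT library lay within the GFP range for this gene. Among 12 other class I genes, 4 were lower and 0 were higher in each tissue. Of all genes, 23.6% were called lower and 22.3% higher in colon, and 28.2% lower and 24.6% higher in ileum. B2m, the light chain of class I, had 401, 350 and 845 CPM in colon GFP cells, against 784 and 668 CPM in colon WT crypts, with overlapping groups, and was not called by edgeR. H2-Q1, a non-classical class I gene, had 6.91, 6.72 and 5.82 CPM in colon GFP cells, against 79 and 44 CPM in colon WT crypts, with an edgeR adjusted p of 7.56e-07.

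Of the 5 regulators, 5 were lower in colon GFP cells and 3 in ileum GFP cells. Irf1 had 62.6, 56.2 and 85.7 CPM in colon GFP cells, against 298 and 243 CPM in colon WT crypts, 3.97-fold lower with an edgeR adjusted p of 9.53e-05. Irf8, an IRF known from myeloid and lymphoid cells, had 33.5, 36.5 and 50.6 CPM in colon GFP cells, against 145 and 123 CPM in colon WT crypts, 3.34-fold lower with an edgeR adjusted p of 4.71e-05. Irf7, the amplifier of type I interferon, had 14.8, 9.95 and 38.1 CPM in colon GFP cells, against 98.9 and 73.8 CPM in colon WT crypts, 4.16-fold lower with an edgeR adjusted p of 0.00403. No colon GFP library reached a colon WT library for any of the 5 regulators. In ileum, Irf8 had 49.4, 54.8 and 58 CPM in GFP cells, against 211 and 114 CPM in WT crypts, and this call held in all 12 alternatives, with an adjusted p of at most 0.00397. Irf1 had 81.5, 113 and 122 CPM in ileum GFP cells, against 292 and 131 CPM in ileum WT crypts, with an edgeR adjusted p of 0.0086. Irf7 had 12.6, 19.7 and 17.8 CPM in ileum GFP cells, against 52.1 and 35.8 CPM in ileum WT crypts, with an edgeR adjusted p of 0.0273. This call ended without ileum GFP 1 and also without ileum GFP 3. The ileum groups did not overlap for these 3 genes, but the calls of Irf1 and Irf7 ended without ileum WT 1, with log2 fold changes of -0.33 and -1.11 and edgeR adjusted p-values of 0.347 and 0.173. Stat2, a transcription factor of type I interferon signalling, had 31.5, 46.2 and 41.6 CPM in ileum GFP cells, against 65.1 and 39.1 CPM in ileum WT crypts, and was not called.

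Of the 6 interferon-induced GTPases, 4 were lower in colon GFP cells and 2 in ileum GFP cells. Gbp2, a guanylate-binding protein, had 2.87, 2.99 and 14.5 CPM in colon GFP cells, against 91 and 59.7 CPM in colon WT crypts, 11.5-fold lower with an edgeR adjusted p of 0.0133. Gbp3 had 2.23, 0.498 and 5.82 CPM in colon GFP cells, against 17.9 and 15 CPM in colon WT crypts, with an edgeR adjusted p of 0.0107. Igtp, also known as Irgm3, had 8.83, 7.22 and 24.6 CPM in colon GFP cells, against 85.9 and 69.4 CPM in colon WT crypts, 5.81-fold lower with an edgeR adjusted p of 0.0242. Colon GFP 3 was again the highest GFP library for all 3 genes. Irgm2 had 36.6, 46 and 85.1 CPM in colon GFP cells, against 104 and 66.9 CPM in colon WT crypts, and was not called. In ileum, Igtp had 6.98, 9.3 and 4.57 CPM in GFP cells, against 63.4 and 6.48 CPM in WT crypts, so ileum WT 2 lay inside the GFP range. Its log2 fold change was -2.32 with an edgeR adjusted p of 0.0376, and 0.09 with an adjusted p of 0.922 when ileum WT 1 was left out. Irgm1 had 35.1, 47 and 43.8 CPM in ileum GFP cells, against 100 and 67.9 CPM in ileum WT crypts, and was called at an edgeR adjusted p of 0.0104, which was 0.111 without ileum WT 1. Irgm2 had 25.5, 24 and 22.1 CPM in ileum GFP cells, against 65.6 and 11.6 CPM in ileum WT crypts, and was not called.

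Of the 21 antiviral genes, 13 were lower in colon GFP cells and 8 were not called. Ifit2, an inhibitor of viral translation, had 1.81, 2.49 and 2.39 CPM in colon GFP cells, against 37.1 and 26.8 CPM in colon WT crypts, 14.4-fold lower with an edgeR adjusted p of 1.44e-05. Isg15 had 0.957, 0.746 and 6.72 CPM in colon GFP cells, against 21.3 and 20.7 CPM in colon WT crypts, 7.88-fold lower with an edgeR adjusted p of 0.0083. Ifit3 had 0.213, 0 and 1.49 CPM in colon GFP cells, against 4.67 and 2.8 CPM in colon WT crypts, with an edgeR adjusted p of 0.0262. At the other end, Bst2, the tetherin that holds budding virions, had 16.7, 13.7 and 23.6 CPM in colon GFP cells, against 20.7 and 20.5 CPM in colon WT crypts, with overlapping groups and an edgeR adjusted p of 0.595. Oas2, an oligoadenylate synthetase, had 12.7, 11.7 and 27 CPM in colon GFP cells, against 16.7 and 19.4 CPM in colon WT crypts. Ddx58, the RNA sensor RIG-I, had 25.5, 21 and 41.8 CPM in colon GFP cells, against 34.4 and 35.6 CPM in colon WT crypts. For Bst2, Oas2 and Ddx58, colon GFP 3 lay above both WT libraries and the other GFP libraries lay below them. Oasl2 had 36.6, 18.7 and 78.1 CPM in colon GFP cells, against 97.4 and 84.9 CPM in colon WT crypts, and was not called (edgeR adjusted p of 0.0969). Of the 8 antiviral genes not called in colon, 5 overlapped between the groups.

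In ileum, Ifit2 had 0.34, 0.856 and 1.29 CPM in GFP cells, against 6.32 and 1.91 CPM in WT crypts, 4.83-fold lower with an edgeR adjusted p of 0.00344. Oasl1 had 10.9, 16.9 and 13.9 CPM in ileum GFP cells, against 43.3 and 25.3 CPM in ileum WT crypts, with an edgeR adjusted p of 0.0115. Usp18, the protease that removes ISG15, had 1.7, 1.96 and 1.71 CPM in ileum GFP cells, against 4.72 and 5.82 CPM in ileum WT crypts, with an edgeR adjusted p of 0.0204. The groups did not overlap for these 3 genes. The call of Usp18 ended without ileum GFP 1 and also without ileum GFP 3. With ileum WT 1 left out the log2 fold change of Ifit2 was -1.17 with an edgeR adjusted p of 0.103, that of Oasl1 was -0.88 with 0.128, and Usp18 was still called, at an adjusted p of 0.0361. Ifih1, the RNA sensor MDA5, had 53.6, 88 and 76 CPM in ileum GFP cells, against 76.2 and 63.7 CPM in ileum WT crypts, with a log2 fold change of 0.05.

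Whether the difference between GFP cells and WT crypts was larger in colon than in ileum was tested directly. The test called 0 of 42, where 2.24% of all genes were called (1.33% higher and 0.910% lower), with 11 members at an unadjusted p under 0.05 and 1 (Parp14) called by DESeq2. The median of the difference was -0.97, against 0.04 over all genes, and -3.08 for class II. Without colon GFP 3 it called 4 members (Cd74, Oasl2, Irgm1 and H2-Eb1), without ileum WT 1 it called 5 (Irf1, Zbp1, Parp14, Gbp7 and Ifit2), and with no filter on low counts it called 15. All of these differences were more negative in colon. The shares of all genes called in these fits are not given, so the counts do not show whether members moved more than other genes.

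In colon 8 of 12 tested interferon, receptor and signalling genes were lower and 2 were higher, and in ileum 7 were lower and 1 was higher. Of all genes, 23.6% were called lower and 22.3% higher in colon, and 28.2% lower and 24.6% higher in ileum. Socs3, an inhibitor of JAK signalling, had 1.38, 0.498 and 1.49 CPM in colon GFP cells, against 63.4 and 57.7 CPM in colon WT crypts, 53.5-fold lower with an edgeR adjusted p of 2.5e-06. Socs1, its relative, had 0.744, 0 and 0.448 CPM in colon GFP cells, against 9.18 and 10.6 CPM in colon WT crypts, with an edgeR adjusted p of 4.04e-05. Neither gene overlapped between the groups of either tissue. Ifnar2, a chain of the type I receptor, was higher in GFP cells, with log2 fold changes of 0.98 ± 0.35 in colon and 1.08 ± 0.34 in ileum (SE) and edgeR adjusted p-values of 0.0335 and 0.0175. Of 33 other interferon-induced genes, 19 were lower and 3 higher in colon, and 9 were lower and 4 higher in ileum, with the same shares of all genes. Isg20, an RNA exonuclease, was among those higher in both: it had 61.1, 57.4 and 73.5 CPM in colon GFP cells, against 12.5 and 15.1 CPM in colon WT crypts, 4.63-fold higher with an edgeR adjusted p of 0.000477.

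The third comparison sets colon against ileum within each kind of sample. In WT crypts 14 of 42 members were higher in colon and 0 were lower, where 10.2% of all genes were called higher and 9.71% lower (19.9% in all). In KO crypts 12 of 42 were higher in colon and 0 were lower, where 13.1% of all genes were called higher and 12.6% lower. Both colon libraries lay above both ileum libraries for 29 members in WT crypts (28.6% of all genes) and for 29 in KO crypts (35.5% of all genes). The reverse held for 0 members in WT crypts (30.1% of all genes) and for 4 in KO crypts (32.9% of all genes). The antiviral class held most of them, 12 of 21 in WT and 10 of 21 in KO crypts, with medians of 1.5 in WT and 1.24 in KO crypts on the log2 scale. Gbp3 was the 1 of 6 GTPases called in each, and edgeR called no gene of class I processing (0 of 5) or class II (0 of 5). The WT and KO comparisons use different libraries but come from 1 fit that shares its estimate of the spread. Called in both were 10 genes: Ifit2, Ifi44, Dhx58, Oas2, Oasl2, Rtp4, Isg15, Bst2, Xaf1 and Gbp3. They made up 71.4% of the WT list and 83.3% of the KO list. The overlap over all genes is not given, so it is open whether members overlapped more than other genes.

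Sums of leukocyte markers lay lower in colon than in ileum KO crypts and overlapped between the tissues in WT crypts. They came to 29.6 and 37.9 CPM in colon KO crypts, against 71 and 47.3 CPM in ileum KO crypts, and to 73 and 53.8 CPM in colon WT crypts, against 133 and 27.8 CPM in ileum WT crypts. T and NK cell markers summed to 39.5 and 31.2 CPM in colon KO, against 196 and 184 CPM in ileum KO crypts, and to 102 and 66.4 CPM in colon WT, against 206 and 30.9 CPM in ileum WT crypts. The WT count was 9 when either colon WT library was left out, which ended the calls of Gbp3, Irf9, Oas3 and Xaf1 in both cases, of Ifit2 without colon WT 1 and of Mx1 without colon WT 2. It was 33 when ileum WT 1 was left out, where 23.8% of all genes were called in either direction. Leaving out ileum WT 2 gave 15, of which 13 were higher and 2 lower, without Irf9, Oas3 and Xaf1. The KO count was 7 when either colon KO 2 or ileum KO 1 was left out, without Gbp3, Ifi44, Ifit3, Irf7 and Xaf1 in both cases. Where no share of all genes stands beside these counts, they describe the members only.

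**Figure D4:**
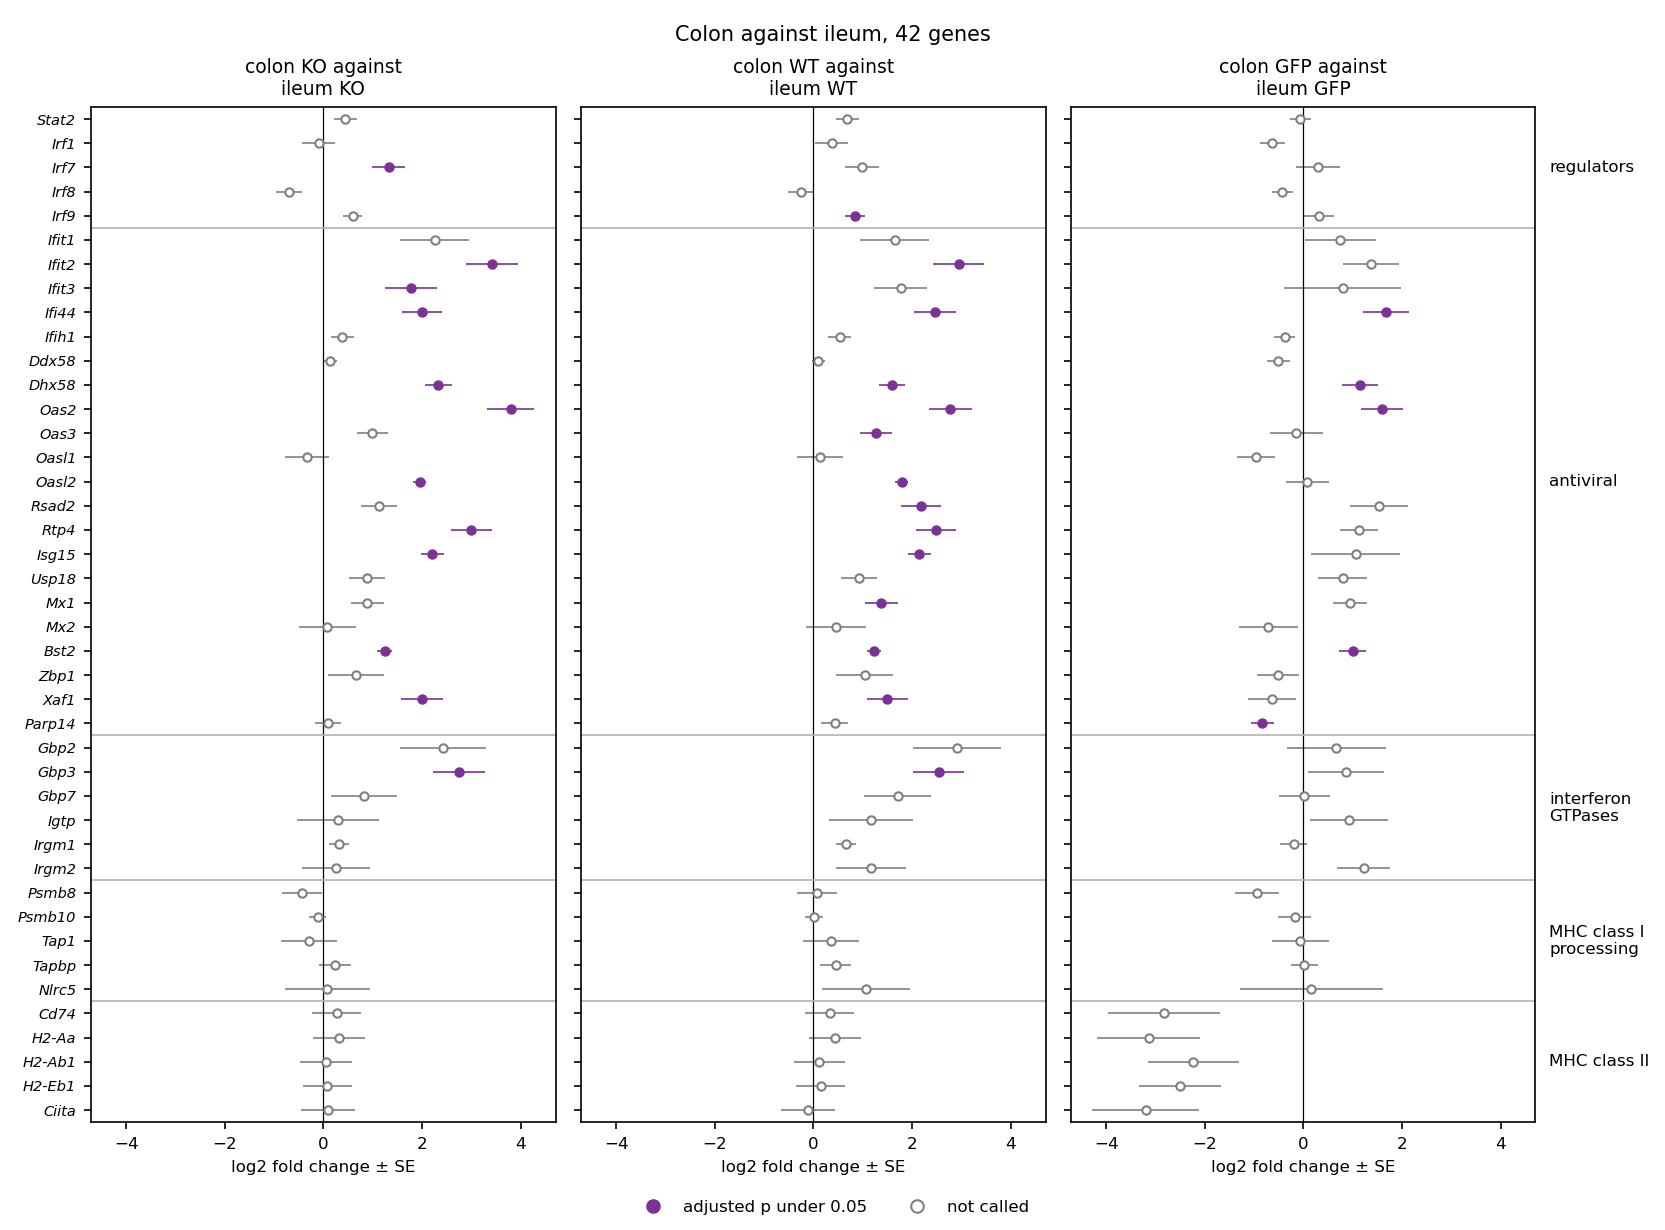
Log2 fold change (x axis, with its standard error as a bar) of each of the 42 genes, ordered down the page by class, in colon against ileum for KO crypts, WT crypts and GFP cells. Filled points have an edgeR adjusted p under 0.05. In crypts the 12 and 14 called genes all lie above 0 and most are antiviral; in GFP cells the 5 class II genes lie at -2.23 to -3.20 and are not called by edgeR in the fit of all 14 libraries.

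Isg15 had 21.5 and 29.2 CPM in colon KO crypts, against 4.3 and 6.39 CPM in ileum KO crypts, 4.63-fold higher with an edgeR adjusted p of 0.000776. It had 21.3 and 20.7 CPM in colon WT crypts, against 4.87 and 4.65 CPM in ileum WT crypts, 4.44-fold higher with an edgeR adjusted p of 0.00113. Its WT and KO libraries were close to each other within a tissue, and all colon libraries exceeded all ileum libraries. Oasl2 had 95.7 and 118 CPM in colon KO, against 27.5 and 26.8 CPM in ileum KO crypts, and 97.4 and 84.9 CPM in colon WT, against 27.6 and 25.7 CPM in ileum WT crypts. Its log2 fold changes were 1.95 ± 0.13 in KO and 1.79 ± 0.13 in WT crypts (SE), with edgeR adjusted p-values of 0.000132 and 0.000238. The 4 ileum crypt libraries were nearly level for Oasl2. Bst2 had 15.7 and 19 CPM in colon KO, against 6.88 and 7.45 CPM in ileum KO crypts, and 20.7 and 20.5 CPM in colon WT, against 8.3 and 9.47 CPM in ileum WT crypts. It was 2.37-fold higher in KO and 2.34-fold higher in WT crypts of colon, with edgeR adjusted p-values of 0.00162 and 0.00216. These 3 genes differed little between ileum WT 1 and the low library ileum WT 2. With all 14 libraries in the fit, edgeR no longer called Isg15, with adjusted p-values of 0.123 in WT and 0.0858 in KO crypts. Nor did it then call Oasl2 in WT crypts (edgeR adjusted p of 0.0592).

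The widest fold changes belonged to genes of low level in ileum. Oas2 had 10.5 and 21.2 CPM in colon KO, against 0.86 and 1.35 CPM in ileum KO crypts, 13.9-fold higher with an edgeR adjusted p of 0.00214. It had 16.7 and 19.4 CPM in colon WT, against 1.83 and 3.49 CPM in ileum WT crypts, 6.87-fold higher with an edgeR adjusted p of 0.00665. Ifit2 had 37.8 and 52.6 CPM in colon KO, against 5.24 and 3.01 CPM in ileum KO crypts, 10.7-fold higher with an edgeR adjusted p of 0.00535. The groups did not overlap in any of these. In WT crypts Ifit2 had 37.1 and 26.8 CPM in colon, against 6.32 and 1.91 CPM in ileum, with an edgeR adjusted p of 0.0117. Rtp4, an antiviral chaperone-like protein, had 18.6 and 32.2 CPM in colon KO, against 2.03 and 4.14 CPM in ileum KO crypts, 8.02-fold higher with an edgeR adjusted p of 0.00269. In WT crypts Rtp4 had 22.5 and 16.6 CPM in colon, against 3.2 and 3.82 CPM in ileum, with an edgeR adjusted p of 0.0072. For Rtp4, too, all colon libraries exceeded all ileum libraries. Dhx58, the sensor LGP2, had 17.6 and 25.5 CPM in colon KO, against 3.99 and 4.36 CPM in ileum KO crypts, and 18.2 and 18.5 CPM in colon WT, against 4.8 and 7.48 CPM in ileum WT crypts. The calls of Oas2, Rtp4, Dhx58 and Bst2 held under all 12 alternatives in both comparisons. Gbp3 had 15 and 16.7 CPM in colon KO, against 1.56 and 3.01 CPM in ileum KO crypts, and 17.9 and 15 CPM in colon WT, against 4.42 and 1.25 CPM in ileum WT crypts, with edgeR adjusted p-values of 0.0112 and 0.0178.

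**Figure D5:**
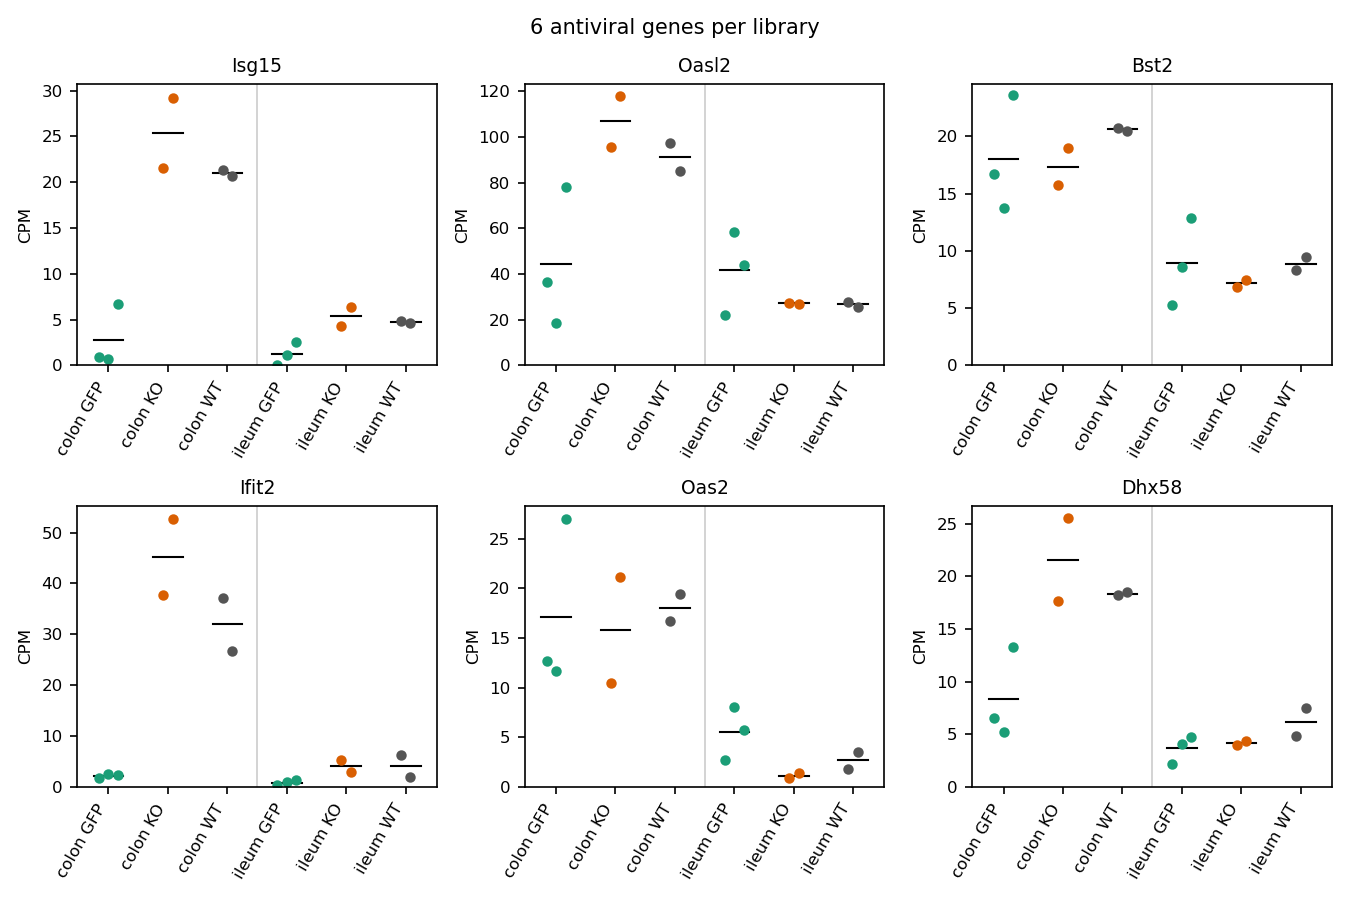
CPM (y axis, from 0) of 6 antiviral genes picked among the genes called in both crypt comparisons, after their values were seen, with 1 point per library and a line at the group mean, for GFP, KO and WT of colon (left of the grey line) and ileum (right of it). Every colon crypt library lies above every ileum crypt library; in GFP cells Isg15 and Ifit2 stay at or below 6.72 CPM whereas Bst2 and Oas2 of colon reach 23.6 and 27 CPM.

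Among regulators, Irf9, the DNA-binding part of the type I complex, was called in WT crypts, with 61.4 and 53.4 CPM in colon, against 37.4 and 27 CPM in ileum (edgeR adjusted p of 0.0249). Irf7 was called in KO crypts, with 88.9 and 141 CPM in colon, against 34.9 and 55.7 CPM in ileum (edgeR adjusted p of 0.0327). Irf8 had 132 and 122 CPM in colon KO crypts, against 205 and 198 CPM in ileum KO crypts, and was not called (edgeR adjusted p of 0.0954). Parp14 had 138 and 185 CPM in colon KO, against 154 and 144 CPM in ileum KO crypts, and Irgm1 had 113 and 130 CPM, against 93.7 and 96.1 CPM. Neither was called by edgeR in KO or WT crypts. In WT crypts the edgeR adjusted p of Irgm1 was 0.0582, and DESeq2 called it, as did 4 of the 11 other alternatives.

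No gene of class I processing or class II was called between the tissues in crypts by edgeR or by DESeq2. Without ileum WT 1, edgeR called the 5 class II genes, Nlrc5, Psmb8, Tap1 and Tapbp higher in colon WT than in ileum WT crypts, where Cd74 had a log2 fold change of 1.45 with an adjusted p of 0.00141. Cd74 had 1780 and 1530 CPM in colon KO, against 1450 and 1250 CPM in ileum KO crypts, and 1500 and 1240 CPM in colon WT, against 1710 and 505 CPM in ileum WT crypts. Tapbp had 255 and 255 CPM in colon KO, against 233 and 194 CPM in ileum KO crypts, and 240 and 223 CPM in colon WT, against 235 and 108 CPM in ileum WT crypts. The class II medians were 0.09 in KO and 0.15 in WT crypts, and those of class I processing were -0.12 in KO and 0.35 in WT crypts. The log2 fold change of Cd74 was 0.27 ± 0.50 in KO and 0.33 ± 0.50 in WT crypts (SE). Of the wider lists, 11 of 33 other interferon-induced genes were higher in colon WT and 14 of 33 in colon KO crypts, with 0 lower in either. Of all genes, 10.2% were called higher and 9.71% lower in WT crypts, and 13.1% higher and 12.6% lower in KO crypts. Aim2, a DNA sensor, had 48 and 41 CPM in colon KO, against 14.3 and 16 CPM in ileum KO crypts, with an edgeR adjusted p of 0.00218.

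In GFP cells 5 of 42 members were called between the tissues, 4 higher and 1 lower in colon, where 12.6% of all genes were called higher and 10.2% lower. Every colon GFP library lay above every ileum GFP library for 9 members (18.3% of all genes) and below for 7 (16.2% of all genes). Ifi44 had 5.32, 5.23 and 13.9 CPM in colon GFP cells, against 2.55, 1.35 and 3.71 CPM in ileum GFP cells, with an edgeR adjusted p of 0.0209. Oas2 had 12.7, 11.7 and 27 CPM in colon GFP cells, against 2.72, 8.07 and 5.71 CPM in ileum GFP cells, with an edgeR adjusted p of 0.0177. Bst2 had 16.7, 13.7 and 23.6 CPM in colon GFP cells, against 5.28, 8.56 and 12.9 CPM in ileum GFP cells, 2-fold higher with an edgeR adjusted p of 0.0181. Dhx58 was the fourth, and Ifi44, Oas2, Bst2 and Dhx58 were also called higher in colon in both crypt comparisons. All 4 calls in GFP cells ended without colon GFP 3, with log2 fold changes of 1.07 for Ifi44, 1.12 for Oas2, 0.77 for Bst2 and 0.67 for Dhx58 and edgeR adjusted p-values of 0.083 to 0.186. With the tables' own numbers as a block, the calls of Ifi44, Dhx58 and Bst2 ended too. In that fit most of the members called were lower in colon. Parp14 had 35.7, 20.7 and 38.1 CPM in colon GFP cells, against 59.7, 55.5 and 52.4 CPM in ileum GFP cells, with an edgeR adjusted p of 0.0232. Irf1 had 62.6, 56.2 and 85.7 CPM in colon GFP cells, against 81.5, 113 and 122 CPM in ileum GFP cells, and was not called.

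Class II genes lay the other way in GFP cells and missed the threshold of edgeR in the fit of all libraries. DESeq2 called Ciita, H2-Aa and H2-Eb1 lower in colon, edgeR with the replicate number as a block called Ciita and Cd74, and edgeR with no filter on low counts called all 5. Cd74 had 11.4, 2.86 and 126 CPM in colon GFP cells, against 540, 274 and 184 CPM in ileum GFP cells, with an edgeR adjusted p of 0.109. Ciita had 0.638, 0.373 and 0.597 CPM in colon GFP cells, against 12.4, 2.08 and 1.43 CPM in ileum GFP cells, with a log2 fold change of -3.20 ± 1.09 (SE) and an edgeR adjusted p of 0.0621. For all 5 class II genes every colon GFP library lay below every ileum GFP library, and all 5 had an unadjusted p under 0.05. The number of members called ran from 1 without ileum GFP 1 and 2 without ileum GFP 2 to 9 without colon GFP 3, which then held 4 of the 5 class II genes, all lower in colon. With both colon GFP 3 and ileum WT 2 left out it was 15, of which 1 was higher. Shares of all genes called in these fits are not given, so these counts describe the members only. T and NK cell markers summed to 2.13, 5.35 and 10.2 CPM in colon GFP cells, against 18.4, 12.1 and 8.85 CPM in ileum GFP cells, and their part in this difference was not tested.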

How the data were processed

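RNA-seq gene counts of 14 libraries in 6 groups were used. The authors aligned reads with TopHat 1.4.1 to mm9 and counted them per gene with HTSeq, per the submitters' processing notes, and the deposited values are raw counts. Neither the strand setting nor the annotation release is given in the sources used here. HTSeq's special lines were left out of library sizes: reads aligned at several sites were 29.25 to 42.98% of all lines, and reads in no gene were 24.87 to 52.29% of unique reads in GFP libraries, against 9.3 to 13.25% in crypt libraries. Of 36536 Ensembl genes, 31004 were given a symbol from RefSeq tables.

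The quasi-likelihood test of edgeR 4.0.16 (limma 3.58.1, R 4.3.3) was fitted to TMM-scaled counts, after a filter on low counts by group, with Benjamini-Hochberg adjustment over all genes tested and a threshold of 0.05. Comparisons among crypts used the 8 crypt libraries (14415 genes) and those with GFP cells all 14 (15274 genes). Fold changes are given on the log2 scale or as folds, with standard errors from the fit. Gene counts of 7478418 to 12991891 per library set the precision, and floors cover counting error only.

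Genes were described with values in every library by a rule: per class and comparison, up to 3 called genes of largest fold change and the uncalled gene of highest level, and up to 3 called genes per wider pathway list. The class II genes, Rsad2, Oasl1 and the other genes shown for KO against WT, further antiviral genes, and B2m, Ifi30, Ifnar2, Ifnlr1 and Isg20 were chosen after their values were seen. The members and lists were chosen with earlier results of these data known. The alternatives were DESeq2 1.42.0 (its size factors within edgeR, and its Wald test), no filter on low counts, library sizes computed after removing each gene that exceeds 1% of a library's counts, fewer or more libraries in the fit, a replicate block and leaving out each library. The fits were tested on simulated counts with known fold changes.

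Promoters came from RefSeq tables of GRCm38.p6, whose coordinates are not those of mm9.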

Additional observations from a re-analysis of the deposited data

How the results depend on the processing

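Of 1501 alternative values of 121 gene results, 1273 kept their direction and side of the threshold and 27, of 19 gene results, took the other sign but were uncalled in both fits. The call was lost in 144 and gained in 56, and 1 called value reversed: Igtp in ileum GFP against ileum WT, with a log2 fold change of -2.32 over all libraries, of 0.09 without ileum WT 1 and of -3.19 without ileum WT 2. With 2 or 3 libraries per group, counts of members called moved widely when 1 library was left out, and the cause was not tested. They ranged from 0 to 0 in colon KO against colon WT, from 0 to 19 in ileum KO against ileum WT and from 0 to 13 for the difference between these. They ranged from 17 to 39 in colon GFP against colon WT, from 5 to 28 in ileum GFP against ileum WT and from 0 to 5 for their difference. Between colon and ileum they ranged from 7 to 12 in KO crypts, from 9 to 33 in WT crypts and from 1 to 15 in GFP cells. These ranges include the fit without both colon GFP 3 and ileum WT 2, chosen after seeing the data, which gave 39, 28 and 2 in the GFP against WT comparisons and their difference, and 15 between the tissues in GFP cells.

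With no filter on low counts, 31 members were called in ileum GFP against ileum WT, 15 in the difference of the GFP comparisons and 19 in colon GFP against ileum GFP. The DESeq2 Wald test called 2 in ileum KO against ileum WT, 1 in the difference of the GFP comparisons and 12 in colon GFP against ileum GFP. Fitting only the groups compared gave 20 in colon KO against ileum KO and 8 in colon WT against ileum WT, and all 14 libraries in the fit also gave 8 in the last. Shares of all genes called are not given for these settings or for the blocks below. The counts therefore do not show whether members moved more than other genes.

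With the replicate number as a block, 8 members were called in colon GFP against ileum GFP, 36 in colon GFP against colon WT, 19 in ileum GFP against ileum WT, 13 in colon WT against ileum WT, 10 in colon KO against ileum KO and 0 in the other comparisons. The tables' own numbers as a block gave 17 in GFP cells (1 higher and 16 lower in colon), 20 in WT and 18 in KO crypts, but nothing in the labels says that these numbers mark an animal. Same-numbered KO and WT libraries did not deviate together (r of -0.01 in colon and 0.05 in ileum). Same-numbered colon and ileum crypt libraries deviated together (r of 0.36 in KO and 0.32 in WT), which with 2 pairs is a hint only.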
